A study of Mus musculus with 63 samples.

Results

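The respiratory chain genes described here are the protein-coding genes of the count table whose symbols begin with the prefixes Ndufa, Ndufb, Ndufc, Ndufs, Ndufv, Uqcr, Cox4i, Cox5, Cox6, Cox7, Cox8, mt-Nd, mt-Co, mt-Cytb or mt-Atp, or with Sdha, Sdhb, Sdhc or Sdhd. Of 56748 genes in the table, 93 matched, and the 86 with a mean of at least 1 CPM (counts-per-million) over the 63 libraries were kept. They are 61 nuclear genes for subunits, 12 nuclear genes for assembly factors that the prefixes also caught (8 Ndufaf and 4 Sdhaf genes), and 13 genes of the mitochondrial genome. The nuclear subunits belong to complex I (36), complex II (4), complex III (8) and complex IV (13, with Ndufa4 counted there), and the mitochondrial ones to complex I (7), complex III (1), complex IV (3) and ATP synthase (2). The 7 genes left out were Cox4i2, Cox6b2, Cox7a1, Cox7b2, Cox8b, Cox8c and Ndufa4l2. Closest to the limit were Cox6b2 at 0.79 CPM outside it and Ndufb2 at 1.72 CPM inside it. All 86 genes passed the low-count filter of the tests.

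The study profiled polyA RNA from peritoneal macrophages of R1441C knock-in mice (KI), which carry a disease-linked change in the kinase LRRK2, and of B6 control mice (WT). It asked how the R1441C change acts on myeloid cells by sex and age. Mice were 18 to 21 months (old) or 2 to 3 months (young), and cells were cultured for 18 h with 100 U interferon-gamma (IFN-γ) or with water as vehicle (untreated). All mice had received 3% thioglycollate in the abdomen 72 h before collection and buprenorphine against pain, so every group is of elicited macrophages. The libraries number 5 of KI old IFN-γ females, 5 of KI old untreated females, 2 of KI young IFN-γ females and 5 of KI young untreated females. KI males gave 5 libraries of IFN-γ and 3 of untreated cells from old mice, and 3 of each from young mice. WT females gave 5 of each from old and 3 of each from young mice. WT males gave 5 of IFN-γ and 3 of untreated cells at each age. The labels do not say that replicates came from separate mice, so p-values measure the spread between these libraries.

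The respiratory chain sits in the inner mitochondrial membrane. Complexes I and II pass electrons from NADH and succinate to ubiquinone, complex III hands them to cytochrome c, and complex IV gives them to oxygen. Complexes I, III and IV pump protons, and ATP synthase uses the gradient to make ATP. The mitochondrial genome is transcribed from long precursors by its own polymerase and encodes core subunits of complexes I, III, IV and ATP synthase, while all other subunits, and all of complex II, are nuclear and imported. In macrophages, inflammatory stimuli are known to shift energy metabolism between respiration and glycolysis, and complex II is also where succinate is oxidised.

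The summed level of 7 IFN-γ response genes was 8237 to 15377 CPM in the 36 libraries labelled old, against 69.5 to 1522 CPM in the 27 labelled young. By treatment label the ranges overlapped, at 88.1 to 13083 CPM under IFN-γ and 69.5 to 15377 CPM untreated. All 16 old libraries labelled untreated were at 9026 CPM or more, and all 13 young libraries labelled IFN-γ at 1522 CPM or less, so these genes went against the treatment label in both. An exchange of age and treatment labels cannot be told apart from a response that followed age, so each difference of old over young given here could be one of IFN-γ over untreated, and the reverse. The summed level of 8 B cell markers mostly followed the treatment label, at 77.4 to 2825 CPM in libraries labelled IFN-γ and 23.1 to 98.9 CPM in those labelled untreated. The treatment field of the 3 KI old untreated male libraries names interferon-gamma although their titles say untreated. In KI old IFN-γ female libraries 4 and 5, Xist, the RNA that coats the inactive X chromosome, was at 1.69 and 1.55 CPM, against 120.1 CPM or more in the other female libraries, and their B cell markers summed to 81.5 and 82.6 CPM. Ddx3y, a gene of the Y chromosome, was at 0.624 and 0.601 CPM in them, against 33.9 CPM or more in male libraries. They thus had neither the Xist level of the other female libraries nor the Ddx3y level of the male ones. WT IFN-γ female libraries old 2 and young 1 stood apart by the highest B cell sums, 2083 and 2825 CPM. These 4 are called the doubted libraries below. "Old" and "young", and "IFN-γ" and "untreated", therefore stand for the labels. All 7 macrophage markers, Lyz2, Cd68, Csf1r and Adgre1 among them, were present in every library and summed to 18759 to 38414 CPM. Summed neutrophil markers, mostly S100a8, reached 30.6 to 76.7 CPM in old and 8.67 to 22.9 CPM in young libraries, with the defining gene Ly6g at 0 in 37 libraries. Total counts per library were 73593674 to 106644049. In bulk RNA, fewer cells of a type and less RNA per cell cannot be told apart.

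Promoter windows are shown for 4 nuclear subunits, because 3 of them, Ndufs7, Uqcrc1 and Cox6a1, carry motifs of factors long tied to respiratory genes, and Cox5a, one of the genes with the largest difference below, carries none. Each window runs from 250 bases before to 50 bases after the RefSeq start (build GRCm38.p6), 5′ to 3′ on the gene's strand, with motif matches in capitals.
Ndufs7 (chr10:80249199-80249498, plus strand): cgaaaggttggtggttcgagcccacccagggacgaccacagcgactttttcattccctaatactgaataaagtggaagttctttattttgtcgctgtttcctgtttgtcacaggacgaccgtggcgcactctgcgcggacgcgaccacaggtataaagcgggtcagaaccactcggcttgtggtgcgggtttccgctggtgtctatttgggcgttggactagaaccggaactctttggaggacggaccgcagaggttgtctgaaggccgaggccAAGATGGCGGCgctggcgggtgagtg
Uqcrc1 (chr9:108936398-108936697, plus strand): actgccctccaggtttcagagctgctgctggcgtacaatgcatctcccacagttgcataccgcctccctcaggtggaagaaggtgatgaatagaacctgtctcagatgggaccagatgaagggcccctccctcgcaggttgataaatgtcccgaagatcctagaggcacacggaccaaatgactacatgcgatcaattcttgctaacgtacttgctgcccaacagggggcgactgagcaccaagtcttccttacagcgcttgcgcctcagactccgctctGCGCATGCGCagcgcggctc
Cox6a1 (chr5:115348909-115349208, minus strand): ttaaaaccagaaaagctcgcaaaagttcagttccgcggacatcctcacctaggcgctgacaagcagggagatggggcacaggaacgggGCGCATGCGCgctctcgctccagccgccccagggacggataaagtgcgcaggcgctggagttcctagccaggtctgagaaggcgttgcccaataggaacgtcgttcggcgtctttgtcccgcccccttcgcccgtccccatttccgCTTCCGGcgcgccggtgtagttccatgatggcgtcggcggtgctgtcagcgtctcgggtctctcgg
Cox5a (chr9:57520982-57521281, plus strand): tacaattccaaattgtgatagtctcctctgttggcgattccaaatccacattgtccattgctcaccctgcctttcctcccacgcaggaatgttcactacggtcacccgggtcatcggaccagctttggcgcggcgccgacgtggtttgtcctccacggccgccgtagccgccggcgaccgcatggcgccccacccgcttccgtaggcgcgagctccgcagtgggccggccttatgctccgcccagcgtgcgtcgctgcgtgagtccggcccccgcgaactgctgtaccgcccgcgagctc

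The capitals mark the motifs in full, as they were searched: 1 of YY1 in Ndufs7, 1 of NRF1 in Uqcrc1, and in Cox6a1 1 of NRF1 (upstream) followed by 1 of the ETS kind that GABP binds (CCGGAAG, here on the opposite strand). Both strands were searched, no match overlapped that of another motif in these windows, and the NRF1 motif reads the same on each. RefSeq windows were found for 50 of the 61 nuclear subunits. The NRF1 motif was in 3 of the 50 (6%), against 0.977% of all 27025 promoter windows. The ETS motif was in 11 (22%), against 9.12% of all windows, and the YY1 motif in 4 (8%), against 0.699%. At least 1 of the 3 motifs was in 17 of the 50 windows (34%), against 10.5% of all windows. A match of letters is a description of the window and not evidence of binding.

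The mitochondrial genes are packed end to end, and a pair of them share sequence that limits what their counts mean. The last 43 bases of mt-Atp8, 21.1% of its 204, are also the first 43 of mt-Atp6, shown here with the mt-Atp6 start codon in capitals.
mt-Atp8 and mt-Atp6 overlap (mitochondrial genome, GENCODE transcripts): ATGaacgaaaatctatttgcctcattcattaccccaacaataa
The genes mt-Nd4l and mt-Nd4 overlap by 7 bases. Reads of 150 bases cross such joins, so values of these pairs are uncertain. Gene mt-Nd6 lies on the other strand from its neighbours, and the strand setting of the counting is not given in the sources used here, so reads from the opposite strand cannot be told apart.

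On a scale meant for comparing genes (FPKM, fragment counts scaled by gene length and library size, from the authors' table), 12 of the 13 mitochondrial members stood above every nuclear one. Mean levels over the 63 libraries were 3175 FPKM for mt-Co3, 2558 FPKM for mt-Co1 and 868 FPKM for mt-Cytb. The lowest of the 13 was mt-Atp8 at 123 FPKM, the gene with the shared stretch. The highest nuclear members were all complex IV subunits, Cox8a (243 FPKM), Cox6b1 (234), Cox6a1 (158), Cox4i1 (157) and Cox7a2l (115). The lowest nuclear subunits by FPKM, assembly factors left aside, were Ndufb2 at 0.302 FPKM, Cox6a2 at 2.71, Ndufab1 at 2.77, Ndufs1 at 7.14 and Ndufb5 at 8.21 FPKM. These ranks depend on the gene lengths behind the FPKM and are not ranks of counts. Mean counts were 58.0 CPM for Ndufs1 and 41.0 CPM for Ndufb5, above the 8.90 CPM of Ndufb9, which stood at 8.62 FPKM. The complex IV isoform pairs were one-sided. Cox6a1 exceeded its heart and muscle form Cox6a2, and the tissue-restricted forms Cox4i2, Cox6b2, Cox7a1 and Cox8b were below the 1 CPM limit, as was Ndufa4l2, a relative of Ndufa4.

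Summarised per library as the mean log2 CPM of the 61 nuclear subunits, the respiratory chain followed the age label. Libraries labelled old ran from 5.52 to 6.11 (median 5.90) and those labelled young from 4.96 to 5.57 (median 5.32). The ranges met only at their edges, with 2 old libraries below the highest young one. Complex IV did not overlap at all, at 6.09 to 6.78 in old and 5.37 to 6.01 in young libraries. Complex II likewise ran from 7.07 to 7.66 in old and from 6.54 to 7.06 in young libraries. Complex I (medians 5.37 old and 4.84 young) and complex III (6.41 old and 5.86 young) overlapped slightly.

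The 13 mitochondrial members differed less between the age labels, and in the other direction. Their library mean was 8.66 to 9.70 (median 9.19) in old and 9.01 to 9.87 (median 9.40) in young libraries, and most libraries lay where the ranges overlap. They took 0.912% to 2.08% of all counts in old and 1.21% to 2.20% in young libraries. The gap between the mitochondrial and nuclear means was 2.68 to 3.93 log2 units (median 3.29) in old and 3.45 to 4.66 (median 4.04) in young libraries.

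**Figure D1:**
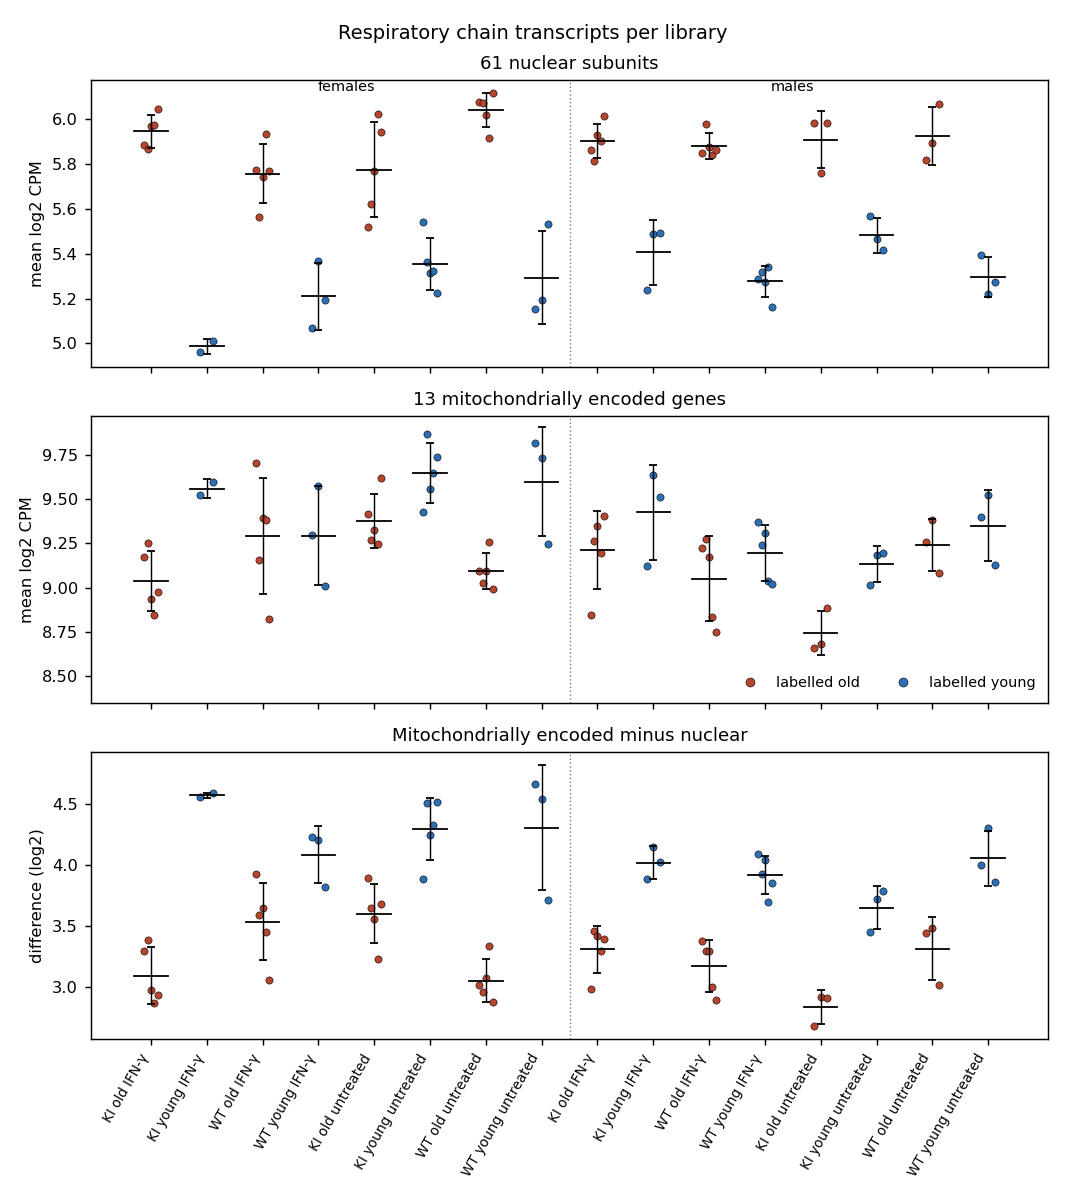
Mean log2 CPM of the 61 nuclear subunits (top), of the 13 mitochondrial members (middle), and of the mitochondrial minus the nuclear mean (bottom), 1 point per library, for the 16 groups with females left and males right in each panel. Bars are the group mean ± SD. Groups labelled old (red) lie higher than young ones (blue) in the nuclear panel and mostly lower in the difference.

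Across the 16 groups the nuclear mean was highest in WT old untreated females (6.04 ± 0.08, SD, n = 5) and lowest in KI young IFN-γ females (4.99 ± 0.03, n = 2). Every old group mean, from 5.76 ± 0.13 in WT old IFN-γ females upward, exceeded every young one, the highest of which was 5.48 ± 0.08 in KI young untreated males. Within old groups, KI IFN-γ females (5.95 ± 0.07), KI IFN-γ males (5.90 ± 0.08), KI untreated males (5.91 ± 0.13), WT IFN-γ males (5.88 ± 0.06) and WT untreated males (5.93 ± 0.13) did not differ beyond their spread. The order of the mitochondrial means was another one. It ran from KI young untreated females (9.65 ± 0.17) and WT young untreated females (9.60 ± 0.31) down to KI old untreated males (8.74 ± 0.12), the only group with no library above 8.89. The mitochondrial minus nuclear gap was widest in KI young IFN-γ females (4.57) and narrowest in KI old untreated males (2.84).

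Nuclear subunits of all 4 complexes were higher in old than in young libraries, in both genotypes and under both treatment labels, and mitochondrial members were not. With an adjusted p under 0.05 (edgeR quasi-likelihood test, Benjamini-Hochberg over 22147 genes), 60 of 61 nuclear subunits rose and 1 fell in KI IFN-γ cells, where 24.9% of all genes tested were called higher and 27.8% lower. In KI untreated cells 50 rose (background 23.1% higher), in WT IFN-γ cells 59 (22.9%) and in WT untreated cells 57 (24.8%), with 0 lower in each by edgeR, by DESeq2 or at an unadjusted p under 0.05. Median log2 differences of old over young were 0.75, 0.43, 0.55 and 0.68 in these 4 comparisons, which share no library. The medians over all genes tested lay within 0.1 of 0. The count of lower nuclear subunits is the single gene Ndufb2, at -0.54 ± 0.16 (SE), a gene of 1.72 CPM. Higher in all 4 were 50 of the 61, namely 28 of 36 in complex I, 4 of 4 in complex II, 8 of 8 in complex III and 10 of 13 in complex IV. For 15 of 61 nuclear subunits no young library reached any old one, against 4.79% of all genes tested that were higher with no overlap. In each of the 4 comparisons all 7 IFN-γ response genes were also higher in old libraries, as were 2 or 3 of the 3 neutrophil markers tested. Of the 7 macrophage markers 2 were higher in each comparison, and 1, 3, 1 and 2 were lower. Their summed level was 18759 to 33653 CPM in old and 23709 to 38414 CPM in young libraries, with the old median below the young one in each sex, genotype and treatment. Mesothelial and fibroblast markers were lower in 5 of 6 cases in KI untreated cells and in 1 of 6 in each other comparison, and in KI untreated females they summed to 48.2 to 332 CPM in old and 388 to 492 CPM in young libraries. Of 8 T and NK cell markers 3, 1, 0 and 1 were higher and 0, 2, 2 and 1 lower. The part of these genes in the results was not tested.

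**Figure D2:**
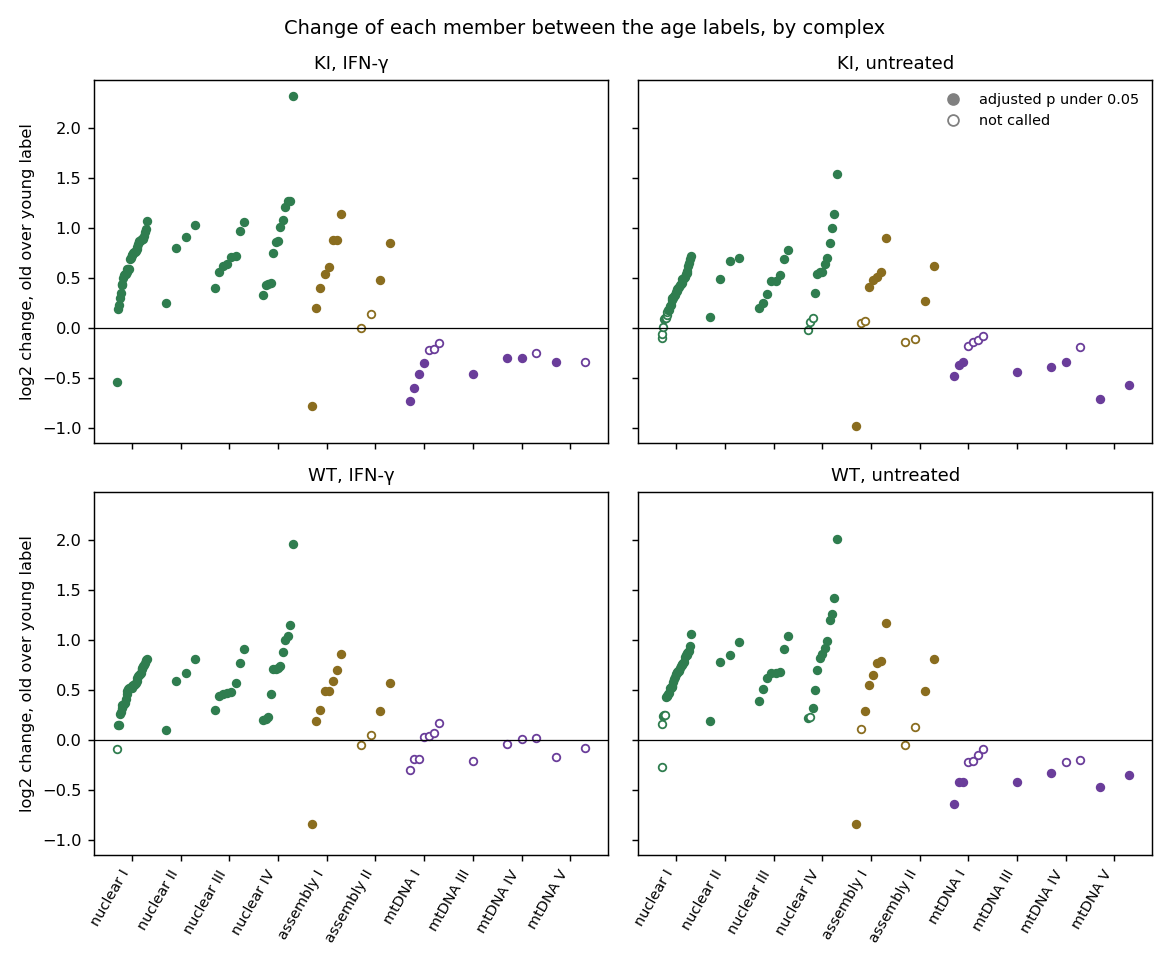
Log2 difference of old over young libraries for each of the 86 genes, by class and complex, in KI IFN-γ, KI untreated, WT IFN-γ and WT untreated cells. Filled points have an adjusted p under 0.05. Nearly all nuclear subunits lie above 0 in each panel, with Ndufb2 below it at -0.54 in KI IFN-γ cells, and the mitochondrial members lie near or below 0.

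Among complex IV subunits, Cox5a was at 44.5 to 78.4 CPM (median 64.2) in old and 18.1 to 34.5 CPM (median 27.0) in young libraries, without overlap. Its log2 difference was 1.27 ± 0.10 in KI IFN-γ (adjusted p = 7.21e-16), 1.14 ± 0.09 in KI untreated, 1.15 ± 0.08 in WT IFN-γ and 1.42 ± 0.10 in WT untreated cells. Cox7b, a small subunit, was at 80.0 to 152 CPM (median 125) in old and 41.6 to 67.9 CPM (median 60.7) in young libraries. Both genes therefore separated every old library from every young one. Cox7a2 (1.21, 0.85, 1.00 and 1.20 in the same order of comparisons) and Cox5b (1.08, 0.70, 0.88 and 1.00) also rose in all 4. The low-level muscle isoform Cox6a2 gave the largest log2 differences of any member, 2.32 ± 0.24, 1.55 ± 0.20, 1.96 ± 0.19 and 2.01 ± 0.22, at only 0.927 to 4.40 CPM (median 2.54) in old and 0.321 to 1.16 CPM (median 0.685) in young libraries. Cox6a2 thus met the 1 CPM limit through the old libraries where it is high, so its difference by age is a description, and it is 1 of the 50 counted as higher in all 4 comparisons. Isoforms left out at that limit lay the other way, Cox6b2 at a median of 0.453 CPM in old and 1.29 CPM in young libraries and Cox7a1 at 0.504 CPM in old and 0.950 CPM in young libraries.

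Cox4i1, the common form of the regulatory subunit 4, moved less. It rose by 0.43 in KI IFN-γ, 0.20 in WT IFN-γ and 0.23 in WT untreated cells, and was at -0.02 in KI untreated cells, where it was not called. Cox7a2l, which takes part in joining complexes III and IV, and Ndufa4 were likewise not called in KI untreated cells (0.10 and 0.06). The rest of complex IV lay between, for example Cox6b1 with 0.86, 0.54, 0.74 and 0.82, and Cox8a with 0.87, 0.64, 0.72 and 0.86.

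In complex II the catalytic flavoprotein Sdha stood apart from its partners. Sdhb, the iron-sulfur subunit, was at 132 to 191 CPM (median 167) in old and 71.9 to 117 CPM (median 91.1) in young libraries, and rose by 1.03 ± 0.07 on the log2 scale in KI IFN-γ and 0.98 ± 0.07 in WT untreated cells. The membrane anchors Sdhc (0.80, 0.49, 0.59 and 0.78) and Sdhd (0.92, 0.67, 0.67 and 0.86) rose as well. Sdha was at 191 to 258 CPM in old and 170 to 238 CPM in young libraries, ranges that mostly overlap, and its called differences were 0.25, 0.11, 0.10 and 0.19.

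All 8 complex III subunits rose in each comparison. The largest differences were those of Uqcrq (1.06, 0.78, 0.91 and 1.04) and Uqcr10 (0.97, 0.69, 0.77 and 0.92), small subunits, and the smallest was that of Uqcrh, the hinge protein (0.40, 0.20, 0.30 and 0.39). The core protein Uqcrc1 rose by 0.72, 0.34, 0.47 and 0.67, and the Rieske iron-sulfur protein Uqcrfs1 by 0.62, 0.53, 0.44 and 0.68. In complex I the core subunit Ndufs3 rose by 1.07, 0.72, 0.81 and 1.06 and the accessory subunits Ndufs4 by 0.99, 0.65, 0.77 and 0.88 and Ndufa5 by 0.89, 0.69, 0.80 and 0.94. The largest core subunit, Ndufs1, rose by less, 0.19, 0.18, 0.15 and 0.25.

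**Figure D3:**
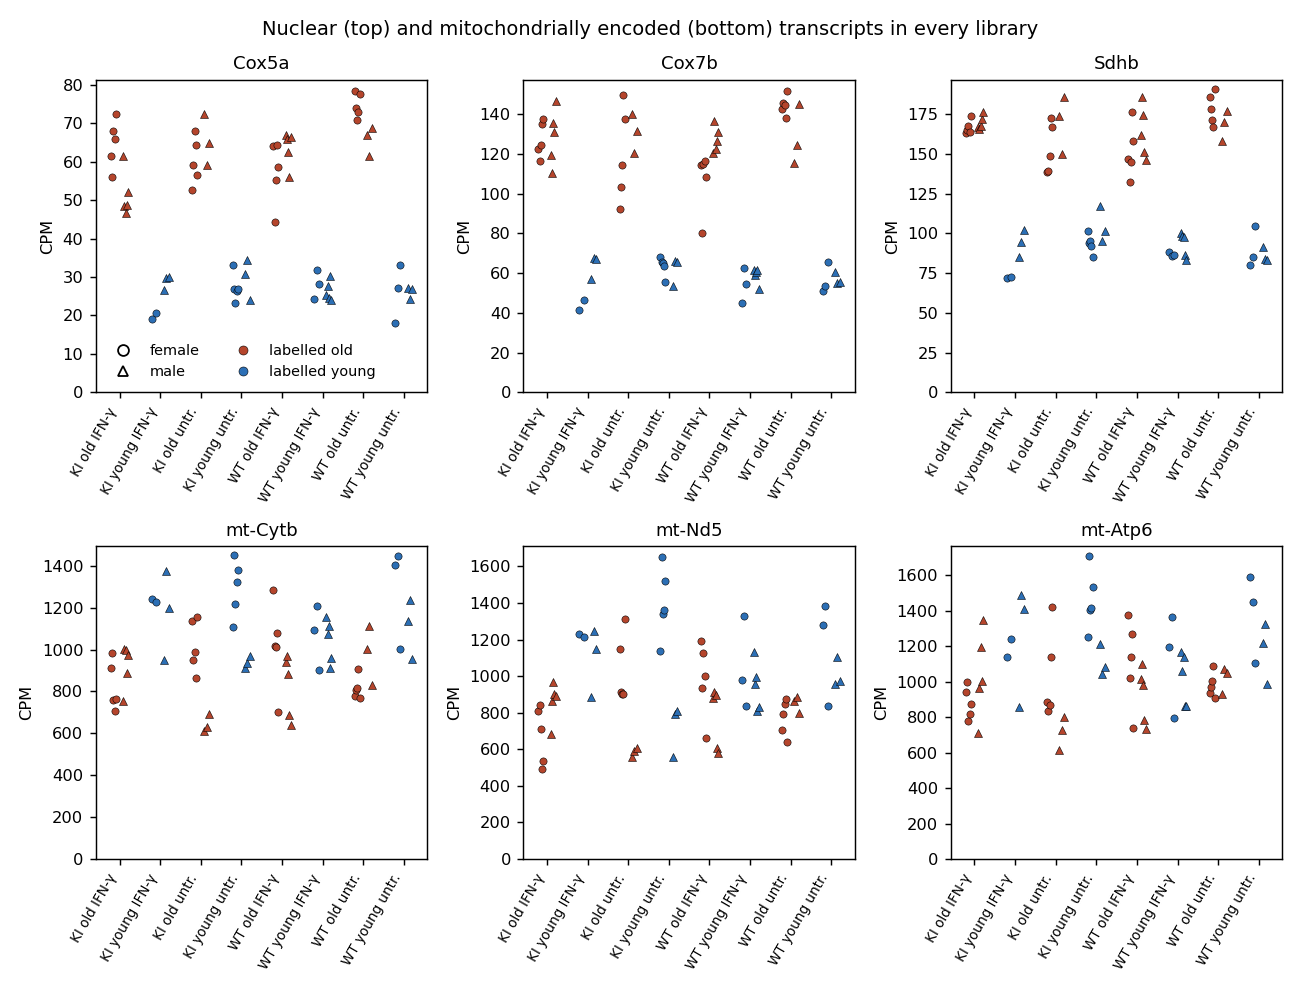
CPM in each library of Cox5a, Cox7b and Sdhb (top) and of mt-Cytb, mt-Nd5 and mt-Atp6 (bottom), by group, with circles for females and triangles for males. The nuclear genes separate old from young libraries, with Sdhb at 132 to 191 CPM in old and 71.9 to 117 CPM in young ones, and the mitochondrial genes overlap.

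Of the 13 mitochondrial members, 8 fell in KI IFN-γ cells, 8 in KI untreated cells and 7 in WT untreated cells, and 0 rose, against 27.8%, 24.3% and 26.7% of all genes tested that were called lower. In WT IFN-γ cells, where 25.8% of genes were lower, edgeR called 0 in either direction. There 2 of the 13 had an unadjusted p under 0.05, the smallest adjusted p was 0.0598, and DESeq2 also called 0. Their median log2 differences were -0.34, -0.34, -0.03 and -0.33 in KI IFN-γ, KI untreated, WT IFN-γ and WT untreated cells. The difference of this effect between KI and WT IFN-γ cells was called for 0 of 13 members by edgeR and by DESeq2, with 3 at an unadjusted p under 0.05. The count in KI IFN-γ cells was 4 without KI young IFN-γ female 1 or 2 or male 3, and 4 without the doubted libraries, with no filter on low counts or with nearly alike libraries joined (those of 1 group that were closer than any pair of different groups, summed). That in KI untreated cells was 5 without KI young untreated female 2 and 4 in females only. In WT IFN-γ cells 3 were called without old female 1 and 1 without old male 2, all lower. Without young female 2 the 1 call was higher, and 1 member was called with only the groups compared in the fit. In no mitochondrial member were old and young libraries free of overlap, which 6.62% of all genes tested were.

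The 5 members lower in 3 of the 4 comparisons belong to different complexes: the complex I subunits mt-Nd4 and mt-Nd5, cytochrome b of complex III, mt-Co2, which receives electrons from cytochrome c, and mt-Atp6, the ATP synthase subunit at the proton channel. Cytochrome b (mt-Cytb) was at 611 to 1284 CPM (median 896) in old and 903 to 1451 CPM (median 1139) in young libraries. Its log2 difference was -0.46 ± 0.11 in KI IFN-γ, -0.44 ± 0.10 in KI untreated, -0.21 ± 0.10 in WT IFN-γ (adjusted p = 0.0696) and -0.42 ± 0.11 in WT untreated cells. The complex I subunit mt-Nd5 was at 493 to 1312 CPM in old and 556 to 1652 CPM in young libraries, with differences of -0.60 ± 0.14, -0.37 ± 0.13, -0.19 ± 0.12 and -0.42 ± 0.14 in the same order. By contrast mt-Nd1, mt-Nd2 and mt-Nd3 were called in none of the 4, with values from -0.22 to 0.17. The catalytic subunit mt-Co1, at 2563 to 5840 CPM in old and 3136 to 6060 CPM in young libraries, was called only in KI IFN-γ cells (-0.30). The overlapping genes mt-Atp6 (-0.58 ± 0.13) and mt-Atp8 (-0.71 ± 0.15) had the largest called differences in KI untreated cells.

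Of the 12 assembly factors, 9, 7, 9 and 8 were higher and 1 was lower in each of the 4 comparisons, where 24.9%, 23.1%, 22.9% and 24.8% of all genes tested were higher and 27.8%, 24.3%, 25.8% and 26.7% lower. Ndufaf5, which hydroxylates an arginine of the core subunit Ndufs7, was at 6.51 to 11.9 CPM in old and 3.68 to 5.93 CPM in young libraries and rose by 1.14, 0.90, 0.86 and 1.17. The lower one was in each case Ndufaf7, an arginine methyltransferase needed for complex I assembly, at 4.52 to 8.03 CPM in old and 9.47 to 14.5 CPM in young libraries. It fell by 0.78, 0.98, 0.84 and 0.84. Sdhaf3 and Sdhaf4 were called in none.

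Other gene lists of the organelle give the context for these differences, each as members higher in KI IFN-γ, KI untreated, WT IFN-γ and WT untreated cells labelled old. The counts stand against the same background of 24.9%, 23.1%, 22.9% and 24.8% of all genes higher and 27.8%, 24.3%, 25.8% and 26.7% lower. Of 17 nuclear ATP synthase genes, 17, 15, 16 and 17 rose, for example the catalytic beta subunit Atp5b by 1.13, 0.84, 0.85 and 1.13. Of 77 mitochondrial ribosomal protein genes, 73, 60, 72 and 72 rose and 1, 0, 0 and 1 fell. Of 15 citric acid cycle genes, 12, 10, 11 and 12 rose and 1, 3, 2 and 2 fell, and of 19 glycolysis genes, 17, 16, 17 and 17 rose and 1, 0, 0 and 0 fell. Acod1, which diverts the cycle to itaconate, differed most in the citric acid cycle list, by 4.91, 4.95, 3.61 and 5.83. Of 36 other assembly factor genes, 24, 18, 25 and 26 rose and 1, 4, 1 and 1 fell, and of 19 genes of the mobile electron carriers, cytochrome c and ubiquinone, 14, 10, 12 and 13 rose and 1, 4, 2 and 2 fell. Cycs, the cytochrome c that links complexes III and IV, rose by 1.75, 1.44, 1.35 and 1.76.

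Of the 30 genes that maintain and express mitochondrial DNA, 16, 12, 14 and 15 were higher, against the background of 24.9%, 23.1%, 22.9% and 24.8%, and 5, 6, 7 and 5 were lower, which is no more than the background of 27.8%, 24.3%, 25.8% and 26.7%. The RNA-binding FASTK family member Tbrg4 was among the higher and the DNA helicase Twnk among the lower (-0.45, -0.39, -0.37 and -0.37). Tfam, which packages and activates the mitochondrial genome, was at 0.11, 0.00, -0.04 and 0.07, and the polymerase Polrmt at 0.17, 0.05, 0.06 and 0.13, and each was called in KI IFN-γ cells alone.

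Of 11 nuclear regulators, those that rose in all 4 comparisons were the coactivators Ppargc1b (1.55, 1.68, 1.22 and 1.61) and Pprc1 (0.50, 0.66, 0.46 and 0.56), the receptor Esrra (0.60, 0.51, 0.51 and 0.52), the GABP beta subunit Gabpb1 (0.30, 0.22, 0.14 and 0.21) and the hypoxia factor Hif1a (1.46, 1.96, 0.91 and 1.91). Those that fell in all 4 were the coactivator Ppargc1a (-2.63, -2.10, -2.01 and -2.41), the GABP alpha subunit Gabpa (-0.57, -0.26, -0.42 and -0.51) and Yy1 (-0.25, -0.20, -0.25 and -0.27). Nrf1 was at -0.09, -0.27, -0.23 and -0.19, the last 3 called, and Myc at -0.41, -0.32, -0.63 and -0.20, the first 3 called.

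Genotype was compared within each sex, age and treatment label. Of the 61 nuclear subunits, 4 rose and 0 fell in KI old IFN-γ females relative to WT old IFN-γ females, where 1.63% of all genes tested were called higher. These were Ndufs7 (0.38 ± 0.11, adjusted p = 0.0313) and Ndufs8 (0.36 ± 0.10, adjusted p = 0.0334), core subunits that carry iron-sulfur clusters, Cox6a1 (0.35 ± 0.10, adjusted p = 0.0349) and Ndufab1, the acyl carrier protein (0.22 ± 0.07, adjusted p = 0.0487). Ndufs7 was at 50.5, 49.4, 56.1, 48.7 and 52.2 CPM in the KI and 42.4, 33.8, 36.3, 45.4 and 39.0 CPM in the WT libraries, which do not overlap. In the same comparison mt-Nd5 fell by 0.54 ± 0.16 on the log2 scale (adjusted p = 0.0401), against 2.85% of all genes called lower. It was at 810, 844, 710, 493 and 538 CPM in KI and 1192, 937, 1128, 1001 and 662 CPM in WT libraries, and 1 WT library lay among the KI values. Mast cell markers were lower in these KI libraries in 4 of 5 cases, summing to 1.01 to 9.50 CPM in KI and 7.53 to 73.2 CPM in WT libraries. T and NK cell markers summed to 3.49 to 5.59 CPM in KI and 5.94 to 11.4 CPM in WT libraries, without overlap, and B cell markers to 81.5 to 657 CPM (median 494) in KI and 226 to 2083 CPM (median 756) in WT libraries. Single markers of these 2 lists were not called. The part of these cell types was not tested. Without the doubted libraries, with nearly alike libraries joined or with only the groups compared, edgeR called 0 nuclear and 0 mitochondrial members. The nuclear count was also 0 without KI library 1, 2 or 5 or WT library 2 or 5, 1 without KI library 3 or WT library 3, 2 without KI library 4 and 17 without WT library 4. The fall of mt-Nd5 was not called without KI library 3, 4 or 5 or WT library 1, 2 or 3.

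The other 7 comparisons gave 0 nuclear subunits called by edgeR. In old untreated cells of females the nuclear members lay lower in KI libraries without passing the test, with a median log2 difference of -0.26 and an unadjusted p under 0.05 for 54 of 61, all lower. The smallest adjusted p was 0.0758, DESeq2 called 4 lower, and 0.00452% of all genes were called. Nuclear means were 5.52, 5.62, 5.77, 6.02 and 5.94 in KI and 6.08, 6.07, 6.02, 5.92 and 6.11 in WT libraries, so KI libraries 1 to 3 lay below every WT one. The count went to 47 lower without KI library 4, 34 without KI library 5 and 6 without WT library 4. The mitochondrial members lay the other way (median 0.32), 9 of 13 had an unadjusted p under 0.05, and 3 were called without KI library 4 and 1 without KI library 5. Cytochrome b (mt-Cytb) was at 1135, 952, 991, 866 and 1157 CPM in KI and 779, 807, 815, 906 and 768 CPM in WT libraries, and only 1 WT library reached the KI range. Macrophage markers summed to 18759 to 27721 CPM in these KI and 26444 to 30461 CPM in these WT libraries, and their part was not tested.

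In old untreated males the mitochondrial members lay lower in KI libraries, and none passed the test. Their median log2 difference of KI over WT was -0.53 and that of the nuclear subunits -0.01. Cytochrome b (mt-Cytb) was at 611, 631 and 695 CPM in KI and 1003, 1114 and 833 CPM in WT libraries. The catalytic mt-Co1 was at 2711, 2631 and 2802 CPM in KI and 4298, 4238 and 3507 CPM in WT libraries, again without overlap. An unadjusted p under 0.05 was reached by 10 of 13, but the smallest adjusted p was 0.928, and DESeq2 called 0 (background 0.00452%). These are the 3 KI libraries whose treatment field disagrees with their titles. In young cells, median differences of nuclear and mitochondrial members were -0.24 and 0.22 in IFN-γ females, 0.06 and 0.05 in untreated females, 0.14 and 0.24 in IFN-γ males, and 0.20 and -0.22 in untreated males, and edgeR called no subunit. Unadjusted p-values under 0.05 there numbered 25, 1, 3 and 21 of the nuclear subunits, and DESeq2 called 6, 0, 0 and 0. Background shares there were 3.79%, 0.312%, 0.0181% and 0% of all genes tested. In the first of these 4, leaving out WT library 1 or 5 gave 1 call. In old IFN-γ males the medians were 0.04 and 0.18. Of all members edgeR called the complex II assembly factor Sdhaf2 alone (0.18 ± 0.05, adjusted p = 0.0316), against 3.92% of all genes higher and 5.92% called in all. For the nuclear subunits there, 9 had an unadjusted p under 0.05, DESeq2 called 2, and edgeR called 2 without KI library 1.

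The genotype difference was then set against sex and age directly. A comparison of the female with the male genotype difference, added after the levels had been seen, called 0 members by edgeR in young IFN-γ, young untreated, old IFN-γ and old untreated cells, where 0.0948%, 0%, 0.0181% and 0% of all genes tested were called. Nuclear subunits at an unadjusted p under 0.05 numbered 39, 1, 9 and 12, and DESeq2 called 5 of them in young IFN-γ cells. In old untreated cells the mitochondrial median of that difference was 0.87, with 12 of 13 at an unadjusted p under 0.05, and DESeq2 called 8 higher. The genotype difference did not pass the test between old and young cells for any of the 61 subunits, with 22 at an unadjusted p under 0.05 and 2 DESeq2 calls under the IFN-γ label, and 40 and 5 under the untreated label (background 0.352% and 0%). Under the untreated label, edgeR called 29 without WT young female 5, 10 without KI old female 4 and 1 without KI old female 5, all lower.

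By treatment label, IFN-γ relative to untreated, the median log2 difference of the 61 nuclear subunits was -0.18 in WT old, 0.08 in KI old, -0.24 in KI young and -0.05 in WT young cells. In WT old cells 27 of 61 nuclear subunits fell and 1 rose, against 12% and 9.62% of all genes tested. The largest falls on the log2 scale were those of Ndufs7 (-0.29), Cox4i1 (-0.29), Ndufb7 (-0.25), Ndufs8 (-0.24) and Cox7a2l (-0.24). The 1 that rose was Cox6a2 (0.52 ± 0.18, adjusted p = 0.0322). The nuclear count was 14 without IFN-γ female 2, 16 without IFN-γ male 1, 18 without untreated female 1, 8 without untreated male 5 and 9 without the doubted libraries. It was 2 with nearly alike libraries joined, 12 with only the groups compared in the fit and 17 with no filter on low counts. In KI old cells Cox6a2 again was the 1 that rose (0.82 ± 0.18, adjusted p = 0.00495, background 2.66% higher). There edgeR and DESeq2 called 0 lower, with 3 at an unadjusted p under 0.05 (background 3.05% lower), and 3 were higher without untreated female 4. With nearly alike libraries joined Cox6a2 was not called. The untreated KI old cells include the 3 male libraries whose treatment field names interferon-gamma. In KI young cells 27 fell and 0 rose (background 4.77% lower), with Ndufa13 at -0.38, Cox4i1 at -0.36 and Ndufb8 at -0.35. That count was 0 without IFN-γ female 1 or IFN-γ male 2, 1 without IFN-γ female 2, and 10 to 14 without untreated male 2, female 1 or female 2. It was 9 with nearly alike libraries joined and 12 with no filter. In WT young cells edgeR called 0 nuclear subunits (6 at an unadjusted p under 0.05, 1 by DESeq2, background 14.9%), with 1 to 3 when IFN-γ female 2, IFN-γ male 3, untreated female 4 or untreated male 5 was left out. It called 1 mitochondrial member, mt-Nd2 (-0.41 ± 0.12, adjusted p = 0.0134, background 5.8% lower), a count that was 0 without IFN-γ female 1 or 5, untreated female 1 or untreated male 2, and with only the groups compared. In the other 3 treatment comparisons edgeR called 0 of 13 mitochondrial members, with 2 at an unadjusted p under 0.05 and 1 DESeq2 call in KI young cells. All 8 B cell markers were higher under the IFN-γ label in each of the 4 comparisons, and 4 or 5 of 5 red cell markers. Of 8 T and NK cell markers, 6 were higher in WT old, 5 in KI old, 2 in KI young (with 1 lower) and 6 in WT young cells. They summed to 5.94 to 11.4 CPM in IFN-γ and 1.06 to 1.35 CPM in untreated WT old females, and to 3.49 to 5.59 CPM in IFN-γ and 0.842 to 1.89 CPM in untreated KI old females. All 5 mast cell markers tested were higher in WT old and in WT young cells and 0 were called in KI cells by edgeR. In WT old females they summed to 7.53 to 73.2 CPM under IFN-γ and 3.30 to 5.18 CPM untreated. The part of these genes was not tested.

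The treatment difference itself differed by genotype in old cells. For 24 of 61 nuclear subunits and 4 of 12 assembly factors it was higher in KI than in WT, with 0 lower, against 9.82% of all genes tested that were higher. The count of 24 was 2 with nearly alike libraries joined and 13 with only the groups compared in the fit. The median over the 61 was 0.25. The untreated KI cells here include the 3 old male libraries whose treatment field names interferon-gamma. The 24 comprised 15 of complex I, 2 of complex II, 1 of complex III and 6 of complex IV, and 0 of 13 mitochondrial members were called by edgeR, by DESeq2 or at an unadjusted p under 0.05. The largest were Ndufs7 (0.45 ± 0.12, adjusted p = 0.00682), Ndufa7 (0.42), Ndufs8 (0.40 ± 0.11, adjusted p = 0.00912), Ndufb8 (0.40) and Cox6a1 (0.39 ± 0.11, adjusted p = 0.0112). Of the same kind were the assembly factors Sdhaf1 (0.42) and Ndufaf3 (0.38). Beside them, 46 of 77 mitochondrial ribosomal protein genes and 6 of 17 ATP synthase genes were higher in this comparison and 0 of 19 glycolysis genes were called.

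Ndufs7, which had the largest of these differences, illustrates the values by library. In KI old females it was at 50.5, 49.4, 56.1, 48.7 and 52.2 CPM under IFN-γ and 33.0, 39.0, 44.5, 44.2 and 46.0 CPM untreated, without overlap. In WT old females most values were lower under IFN-γ, at 42.4, 33.8, 36.3, 45.4 and 39.0 CPM under IFN-γ and 57.7, 46.4, 44.8, 42.3 and 53.9 CPM untreated. In KI old males it was at 45.6, 46.4, 43.4, 45.1 and 45.1 CPM under IFN-γ and 49.0, 38.0 and 48.2 CPM untreated, and in WT old males at 41.9, 41.7, 38.4, 36.4 and 37.3 CPM under IFN-γ and 44.5, 45.4 and 51.5 CPM untreated. The male values thus overlapped between treatments in KI and were all lower under IFN-γ in WT. Within the fit of all 63 libraries, the comparison in female groups alone called 49 nuclear subunits, and in male groups alone 0. The female minus male difference itself, added after these counts had been seen, was called for 0 nuclear and 0 mitochondrial members by edgeR, where 0% of all genes tested were called. For Ndufs7 it was 0.36 ± 0.23 (adjusted p = 0.711). At an unadjusted p under 0.05 it held 30 of 61 nuclear subunits (median 0.41) and 12 of 13 mitochondrial members (median -1.36), and DESeq2 called 0 nuclear subunits and 7 mitochondrial members, all lower. The edgeR count of mitochondrial members was 1 to 6, all lower, when KI IFN-γ female 2, KI untreated female 4, KI IFN-γ male 1, WT IFN-γ female 5, WT IFN-γ male 2 or WT untreated male 5 was left out. With both sexes together, the comparison of treatment differences between KI and WT called 6 nuclear subunits without the 4 doubted libraries. Leaving out single libraries gave 7 nuclear subunits there without WT untreated male 5 and 9 without KI untreated male 4. It gave 14 without KI untreated female 1, 15 without KI IFN-γ male 5 and 38 without KI untreated female 4. B cell and mast cell markers each held 2 genes that were lower in the same comparison.

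**Figure D4:**
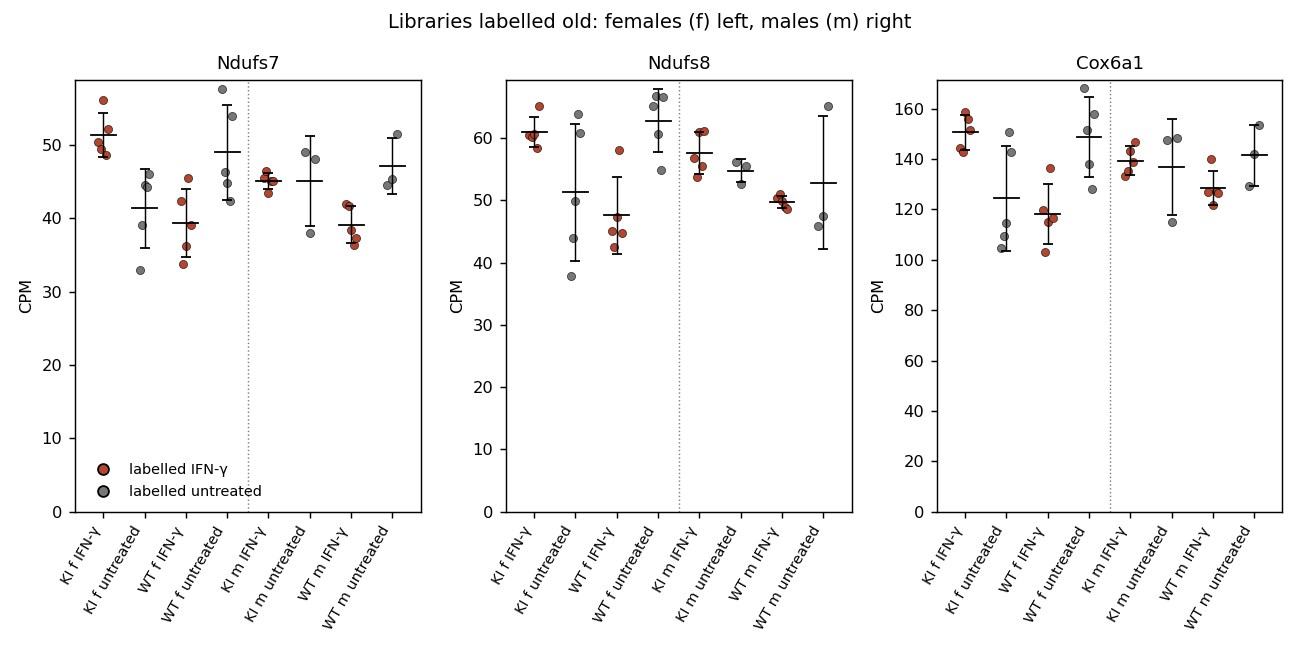
CPM in each library of Ndufs7, Ndufs8 and Cox6a1 in the 8 old groups, females left and males right, with group mean ± SD. Ndufs7 averaged 51.4 ± 2.96 CPM in KI IFN-γ females and 49.0 ± 6.49 CPM in WT untreated females, above the 41.4 ± 5.38 CPM of KI untreated and 39.4 ± 4.66 CPM of WT IFN-γ females.

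In young cells the same comparison of treatment differences gave 1 nuclear subunit, Sdhb, lower in KI (-0.30 ± 0.09, adjusted p = 0.0481, background 3.65% lower), and 1 mitochondrial member, mt-Nd2, higher (0.59 ± 0.18, adjusted p = 0.0338, background 2.76% higher). Sdhb was the whole nuclear count, which was 0 when any of 17 single libraries was left out. Without WT untreated female 5 that count was 13, of which 12 were lower and 1 was higher. The call of mt-Nd2 was likewise lost without any of 10 libraries. The age and treatment comparisons use the same libraries, as do the genotype ones, so no value of one stands in support of another.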

How the data were processed

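Read counts per gene were deposited by the authors as 1 table of whole numbers for 63 libraries, and FPKM values were deposited by the authors beside them. Reads were aligned with STAR 2.7.9a to GRCm39, and DESeq2 1.40.2 was used, per the submitters' processing notes. Which program counted the reads, with which annotation and strand setting, is not given in the sources used here. Of 56748 gene IDs, 52125 were given symbols from GENCODE M21. The counts summed to 73593674 to 106644049 per library (median 98245563), so counting error was small against the spread between libraries for all but the lowest genes.

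Genes were kept by edgeR's filterByExpr (22147 genes, 99.99% of counts) and scaled by TMM factors of 0.886 to 1.23. One quasi-likelihood model with 16 group means was fitted to all libraries (R 4.3.3, edgeR 4.0.16, limma 3.58.1), and each comparison was a contrast of group means with sexes weighted equally, or within 1 sex for genotype. P-values were adjusted by Benjamini-Hochberg over all 22147 genes in each comparison and called under 0.05. A value after ± is a standard error for a log2 difference and an SD for a level. CPM are TMM-scaled, and log2 CPM used a prior count of 0.5. FPKM served only to compare levels between genes. The fit and contrasts were also run on simulated counts. These were drawn with the fitted dispersion trend, which was given back to the fit with the filter off. The estimation of the trend and the filter were therefore not tested.

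The members and lists were chosen with earlier results of these data known. Named were all mitochondrial members, complex II, the isoform pairs, and per comparison up to 5 called genes in each direction with the largest difference. Named too were the 5 highest and lowest nuclear subunits by FPKM, up to 3 genes per direction of each other list, Cycs and the regulators. Any further gene is an example of a counted group. Marker lists of other cell types were summed per library. Alternatives were RLE scaling, scaling without mitochondrial genes, DESeq2 1.42.0, no filter, blocks, fits of fewer groups, joined libraries, and leaving out libraries. Contrasts of females or males only were taken within the full fit. When single libraries were left out the dispersion trend of all 63 was kept. Replicate numbers are shared across groups and were taken only as names.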

Additional observations from a re-analysis of the deposited data

Results flagged for a closer look

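Of 152 tests for a library far from the rest of its group, 7 were positive, and chance gives about 1 in 20. In KI old IFN-γ males, library 1 held mt-Co1 at 3281 CPM, against 3775 to 3949 CPM in the others, and 1 library held Ndufaf5 at 11.9 CPM, against 9.68 to 10.3 CPM. Among WT old IFN-γ females 1 library held Cox7b at 80.0 CPM, against 108 to 116 CPM. Among WT old untreated females 1 library held Cox4i1 at 255 CPM, against 303 to 322 CPM, and 1 held Ndufaf7 at 8.03 CPM, against 5.84 to 6.12 CPM. Among WT old IFN-γ males 1 library had a nuclear mean log2 CPM of 5.98, against 5.84 to 5.88. Among WT young IFN-γ males 1 library held Cox7b at 52.0 CPM, against 58.9 to 61.7 CPM.

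A test of the difference itself set apart the treatment effect of KI and WT old cells for 24 nuclear subunits and 4 assembly factors, and that of young cells for 1 nuclear subunit (Sdhb) and 1 mitochondrial member (mt-Nd2).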

How the results depend on the processing

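The age label results of the nuclear subunits kept their count within 1.5 times under every alternative run. Over all summary values, 1174 of 1345 alternatives stayed close to the value reported, 171 moved and 0 reversed, and of 3561 gene values 3053 kept their call, 507 lost it and 1 reversed. The reversed one was Cox8a in the genotype by treatment difference of old cells, at -0.064 in males only. A count reported as 0 has no direction and could not be recorded as reversed. Mitochondrial age calls in WT IFN-γ cells, reported as 0, went in both directions when single libraries were left out. No scaling moved the median of all genes by over 0.1. No pair of libraries agreed within counting noise, so the planned joining of near-identical libraries had none to join. Joining nearly alike libraries, 14 of 102 within-group pairs, was added after seeing the data and left 51. The comparisons in females or males only, made within the fit of all libraries, were added too. The cause of the changes below was not tested, except that several settings use fewer libraries.

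Nuclear genotype calls in young IFN-γ females (0 as reported) were 4 with RLE factors, 6 with DESeq2 and 4 without the doubted libraries. Those in old IFN-γ females (4) were 0 without the doubted libraries, 0 with nearly alike libraries joined and 0 with only the groups compared in the fit, and the mitochondrial call there (1) became 0 under the same 3 settings and with no filter. Those in old IFN-γ males (0) were 2 with DESeq2, 2 without the doubted libraries and 8 with only the groups compared. In old untreated females DESeq2 gave 4 nuclear and 1 mitochondrial call.

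Mitochondrial age calls in KI IFN-γ cells (8) were 4 with no filter, 4 without the doubted libraries and 4 with nearly alike libraries joined. Those in KI untreated cells (8) were 4 in females only. Those in WT IFN-γ cells (0) were 1 with the replicate block and 1 with only the groups compared.

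Nuclear treatment calls in KI old cells (1) were 2 without the doubted libraries, 0 with libraries joined and 0 in males only, and females only gave 2 mitochondrial calls. In KI young cells (27) they were 12 with no filter, 17 with the replicate block and 9 with libraries joined, and DESeq2 and the animal replicate block each gave 1 mitochondrial call. In WT old cells (28) they were 17 with no filter, 14 with the animal replicate block, 9 without the doubted libraries, 2 with libraries joined and 12 with only the groups compared. In WT young cells (0) they were 1 with RLE factors, 1 with DESeq2, 1 with the replicate block and 7 with the animal replicate block, and the mitochondrial call there (1) was 4 with the animal replicate block and 0 with only the groups compared.

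The genotype by age difference (0 nuclear) was 2 with DESeq2 and 2 with only the groups compared under IFN-γ, and 5 with DESeq2 and 1 in females only untreated. The genotype by treatment difference of old cells (24 nuclear) was 10 with the animal replicate block, 6 without the doubted libraries, 2 with libraries joined, 13 with only the groups compared, 49 in females only and 0 in males only, with 5 mitochondrial calls in females only. That of young cells (1 nuclear, 1 mitochondrial) was 6 nuclear with RLE factors, 12 with DESeq2, 10 without the doubted libraries and 0 under each other setting that moved it, namely scaling without mitochondrial genes, no filter, both blocks, libraries joined and only the groups compared, and 0 mitochondrial with no filter, without the doubted libraries and with libraries joined. The genotype by sex difference (0) was 5 nuclear with DESeq2 and 3 without the doubted libraries in young IFN-γ cells, and 8 mitochondrial with DESeq2 in old untreated cells, and the female minus male genotype by treatment difference of old cells (0) was 7 mitochondrial with DESeq2. Same-numbered libraries had a correlation of deviations over 0.1 in 18 of 26 pairs across age (median 0.29), 15 of 26 across treatment (0.16) and 12 of 26 across genotype (0.02), against 38 of 97 (-0.06), 33 of 97 (-0.03) and 43 of 103 (-0.03) differently numbered pairs. Where groups shared 3 or more numbers, 19 of 44, 18 of 44 and 8 of 42 libraries correlated best with their own number, a hint from the data and not from the design. Not every pair passed 0.1 and no label ties a number to an animal, so the blocks rest on a number alone. The replicate block was run for every comparison. The animal replicate block was run only for the treatment differences and their comparisons between genotypes and sexes. No age or genotype count was therefore tested with the animal replicate block. Where run, the blocks changed no other nuclear or mitochondrial count by over 1.5 times.

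When each library was left out in turn, nuclear genotype calls ran from 0 to 1 in young IFN-γ females, 0 to 17 in old IFN-γ females, 0 to 2 in old IFN-γ males and 0 to 47 in old untreated females. The mitochondrial ones ran from 0 to 1 in old IFN-γ and 0 to 3 in old untreated females. Mitochondrial age calls ran from 4 to 11 in KI IFN-γ, 5 to 8 in KI untreated and 0 to 3 in WT IFN-γ cells. Nuclear treatment calls ran from 1 to 3 in KI old, 0 to 31 in KI young, 8 to 37 in WT old and 0 to 3 in WT young cells, and mitochondrial ones from 0 to 1 in KI young and 0 to 3 in WT young cells. The genotype by age difference untreated ran from 0 to 29, the genotype by treatment difference from 7 to 38 in old and 0 to 13 in young cells (mitochondrial 0 to 3), and the genotype by sex difference in young IFN-γ cells from 0 to 1, and the female minus male genotype by treatment difference of old cells from 0 to 6 mitochondrial members.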
